A study of Mus musculus with 23 samples.

Results

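The genes examined here are 7 markers of disease-associated microglia (DAM), namely Apoe, Cst7, Itgax, Clec7a, Spp1, Igf1 and Fabp5. They were chosen by name, with earlier results of these data known. All 7 are among the 770 genes (757 endogenous and 13 housekeeping) that the nCounter Mouse Neuroinflammation panel counts. The question was how far the cortex after a single dose of lipopolysaccharide (LPS), a bacterial endotoxin, resembles that state. RNA came from the cortex of 23 wild type mice, 12 wk old, of strain B6FVB, bred in the CamKIIα-TTA/tetO-APP102 x FVB line without carrying its transgenes. The 8 Untreated mice (6 male, 2 female) had neither doxycycline (dox) nor LPS. The 4 Dox mice (1 male, 3 female) were given chow with dox at 100 mg/kg between postnatal day 3 and an age of 6 wk, and then plain chow for a washout of 6 wk. The 5 LPS mice (3 male, 2 female) received 2 mg/kg LPS into the peritoneum 18 h before harvest and no dox. The 6 Dox+LPS mice (3 male, 3 female) received both regimens. According to the methods, mice that were not given LPS were injected with saline.

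DAM are microglia found around amyloid plaques and dying neurons in mouse models of chronic neurodegeneration. In that state microglia lower the genes of the resting (homeostatic) cell, such as P2ry12 and Tmem119, and raise genes of lipid handling, phagocytosis and lysosomes. The full program depends on the receptor Trem2, which binds lipids and lipoproteins including those that carry Apoe, and which signals through the adaptor Tyrobp. LPS acts through a different receptor system, the Toll-like receptors, and gives an acute inflammatory response.

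Total counts over the panel genes ranged from 645971 to 804471 per mouse. Background was set in each mouse at 2 SD above the mean count of 8 negative control probes and ranged from 15.4 to 29.8 counts, which left 609 to 694 of the 770 genes above it. All 11 LPS-injected mice were run on 1 cartridge and all 12 other mice on another, so the effects of LPS and of the cartridge cannot be told apart in any comparison of LPS with saline. After scaling by the upper quartile, the positive control probes were lower by a mean log2 difference of -0.12 in LPS than in Untreated mice and of -0.10 in Dox+LPS than in Dox mice. Among LPS mice, number 3 stood apart. It had the lowest count of its group for Lcn2, an acute phase protein with one of the strongest LPS responses on the panel, at 5449 against a group median of 11440. Untreated mouse 3 had the highest Lcn2 count of its group, 733 against a median of 25.3.

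The promoters of Spp1, Clec7a and Itgax are shown because Spp1 was the 1 member that was above background and higher after LPS in both comparisons, whereas Clec7a and Itgax stayed at or near background. Each line holds 250 bases before and 50 bases after the first listed start site, from RefSeq on build GRCm38.p6, read 5′ to 3′ along the gene's strand. Capitals mark motif matches on either strand. In Spp1 (chr5:104434861-104435160, plus strand) they mark, in order, an interferon response element (GAAA, any 2 bases, GAAA, here on the other strand) and a PU.1/ETS core (GAGGAA). In Clec7a (chr6:129472730-129473029, minus strand) they mark a PU.1/ETS core, and in Itgax (chr7:128129300-128129599, plus strand) an AP-1 site (TGANTCA).
Spp1: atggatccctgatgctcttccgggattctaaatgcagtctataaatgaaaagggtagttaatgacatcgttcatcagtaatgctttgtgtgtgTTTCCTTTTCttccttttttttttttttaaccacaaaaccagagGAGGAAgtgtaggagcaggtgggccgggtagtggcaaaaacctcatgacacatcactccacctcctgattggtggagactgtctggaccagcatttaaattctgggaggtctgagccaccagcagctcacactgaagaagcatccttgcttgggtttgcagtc
Clec7a: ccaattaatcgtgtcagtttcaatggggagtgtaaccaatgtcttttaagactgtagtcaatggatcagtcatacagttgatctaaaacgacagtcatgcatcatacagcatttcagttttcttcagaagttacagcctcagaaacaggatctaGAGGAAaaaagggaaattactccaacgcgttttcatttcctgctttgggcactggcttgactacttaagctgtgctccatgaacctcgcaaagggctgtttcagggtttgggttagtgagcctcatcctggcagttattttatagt
Itgax: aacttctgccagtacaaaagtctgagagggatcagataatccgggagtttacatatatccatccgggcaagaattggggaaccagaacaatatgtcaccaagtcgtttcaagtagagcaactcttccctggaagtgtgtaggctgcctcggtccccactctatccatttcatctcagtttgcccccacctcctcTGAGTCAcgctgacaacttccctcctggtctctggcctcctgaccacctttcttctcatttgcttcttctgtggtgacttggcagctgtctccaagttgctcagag

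PU.1 is the ETS factor that specifies the myeloid lineage, AP-1 factors and interferon regulatory factors are activated in inflammation, and MiT/TFE factors control lysosomal genes. The table held 10 promoter entries for 6 of the 7 genes, all except Fabp5. At least 1 entry had GAGGAA in Apoe, Clec7a, Spp1 and Igf1, and TGANTCA in Cst7, Itgax and Igf1. Of all 32851 promoters in the table, 28.3% held GAGGAA, 7.81% held TGANTCA and 3.44% held the interferon response element. The E-box of the MiT/TFE factors (CACGTG) and the kappa B element (GGGA, any base, TTTCC), carried by 7.15% and 0.411% of all promoters, did not occur in the 10 entries. In Spp1 the GAGGAA began at position -113 and the interferon response element at position -157 relative to the start site. The symbols of all 6 genes were matched, and for Clec7a the accession of the probe was not in the table.

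The 7 genes divided by detection before any comparison was made. Apoe, Spp1 and Fabp5 were above background in 23 of 23 mice. Igf1 exceeded it in 19 mice, with raw counts of 12 to 37. The 3 remaining genes are cell surface or protease control genes that define DAM against resting microglia. Clec7a encodes the phagocytic receptor Dectin-1, Itgax encodes the integrin CD11c, and Cst7 encodes the cysteine protease inhibitor cystatin F. Clec7a was above background in 1 of 23 mice, LPS mouse 4, with 18 counts against a background of 17.7. Cst7 and Itgax were above background in none of the 23 mice, at 4 to 17 and 6 to 17 raw counts. In bulk cortex, fewer cells of a type and less RNA per cell cannot be told apart, and counts at background do not show that a transcript was absent.

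**Figure D1:**
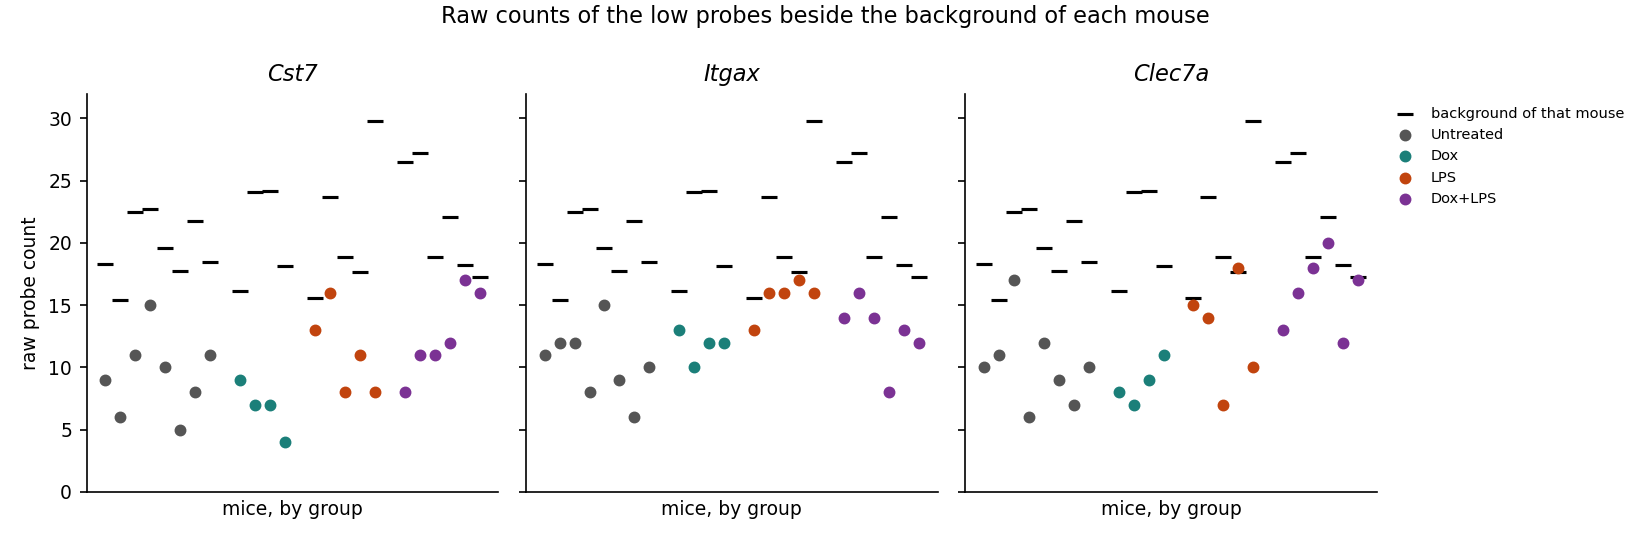
Raw probe counts of Cst7, Itgax and Clec7a (y axis, counts) in each of the 23 mice, by group along the x axis, with a black dash at the background of that mouse (2 SD above the mean of the negative control probes). All points lie under their dash except Clec7a in LPS mouse 4, at 18 counts.

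Of the 7 genes, Spp1 rose and none fell past the threshold after LPS in mice never given dox. A gene was called changed at an adjusted p under 0.05 (quasi-likelihood test of edgeR, Benjamini-Hochberg over 770 genes) and an absolute log2 fold change above 0.5. By this rule 16.8% of all panel genes were higher and 5.97% lower in LPS than in Untreated mice, so 1 of 7 higher and 0 of 7 lower is not above the panel's own shares. In Dox+LPS against Dox mice the rule called 2 members higher, Spp1 and Clec7a, and 1 lower, Igf1, where 19.5% and 7.01% of all genes were called. The Clec7a call came from counts under background in every mouse of both groups.

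Spp1 encodes osteopontin, a secreted phosphoprotein that binds integrins and CD44 and is made by phagocytic microglia and macrophages. In Untreated mice its lowest, median and highest normalized counts were 125, 147 and 206. In the 4 Dox mice it was at 273, 136, 164 and 250. Dox mice 1 and 4 were above every Untreated mouse, and the highest Untreated value belonged to mouse 3.

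In the 5 LPS mice Spp1 was at 622, 712, 272, 788 and 612 normalized counts. In the 6 Dox+LPS mice the lowest, median and highest values were 629, 738 and 985. LPS mouse 3 was far below the other 4 mice of its group, and at 272 it was close to the highest Dox mouse. Every LPS mouse was nevertheless above every Untreated mouse, and every Dox+LPS mouse was above every Dox mouse. Groups were separated in this direction for 13.6% and 18.6% of all panel genes.

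The mean of Spp1 rose from 159.7 ± 29.3 (SD, n = 8) in Untreated to 601 ± 198 (SD, n = 5) in LPS mice. The log2 fold change was 1.91 (SE 0.19, 95% CI 1.51 to 2.31, edgeR adjusted p = 1.28e-08), or 3.76-fold, and ranked 31 of 770. With dox history the mean rose from 206 ± 66.2 (SD, n = 4) to 748 ± 130 (SD, n = 6). The log2 fold change was 1.86 (SE 0.23, 95% CI 1.38 to 2.34, edgeR adjusted p = 3.83e-07), or 3.63-fold, and ranked 46. Without LPS mouse 3 the first of these changes was 2.10, and with positive control scaling the values were 2.05 and 1.94.

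Spread between mice was unequal. The coefficient of variation of Spp1 was 18.4% in Untreated, 32.1% in Dox, 32.9% in LPS and 17.3% in Dox+LPS mice. The order of the group means ran from Untreated through Dox and LPS to Dox+LPS, but neighbours on the same side of the LPS injection did not differ beyond their spread. Dox exceeded Untreated by 0.36 on the log2 scale (95% CI -0.09 to 0.82, edgeR adjusted p = 0.892). Dox+LPS exceeded LPS by 0.31 (95% CI -0.10 to 0.72, adjusted p = 0.534). The difference between both LPS responses, tested as an interaction, was -0.05 (95% CI -0.66 to 0.56, adjusted p = 0.96).

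**Figure D2:**
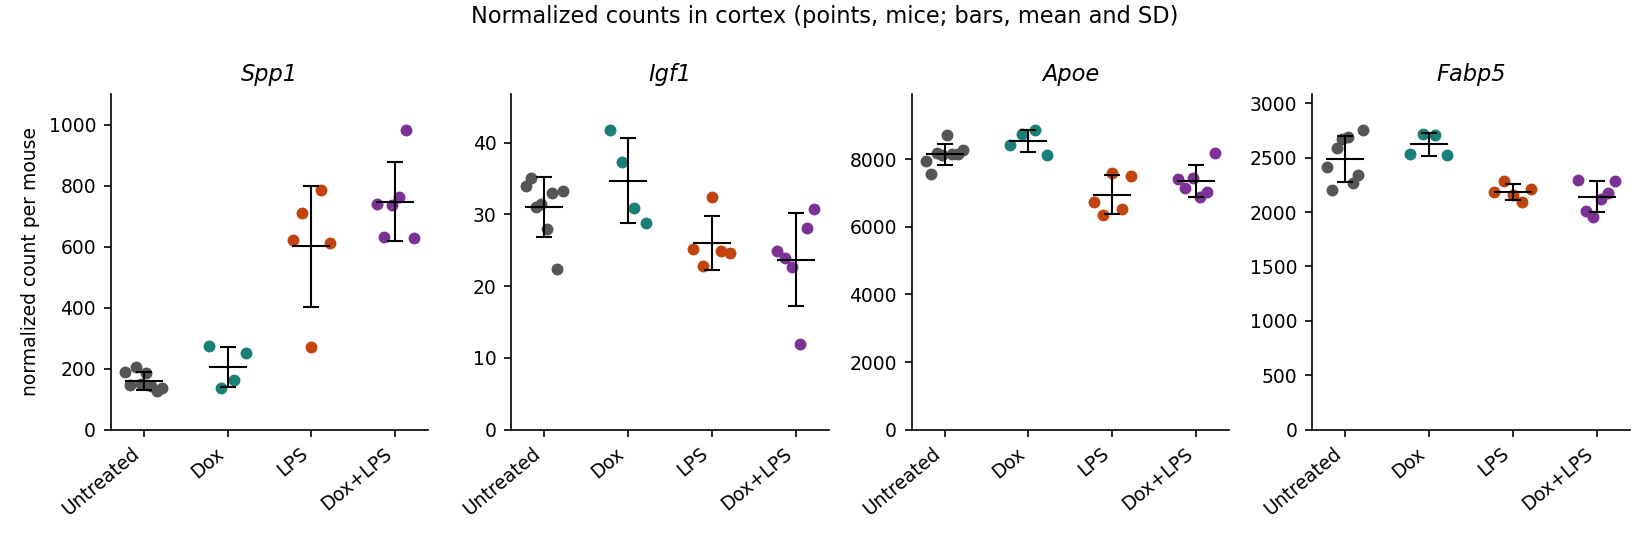
Normalized counts (y axes, from 0, each gene on its own scale) of Spp1, Igf1, Apoe and Fabp5 in each mouse (points) of the 4 groups (x axes), with the group mean and SD as bars. Spp1 separates the LPS-injected from the other mice of the same dox history, whereas the fitted differences of Apoe and Fabp5 are between -18.4% and -12.2%.

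Apoe and Fabp5 both bind lipids. Apoe encodes the main apolipoprotein of the brain, made by astrocytes as well as by DAM, and Fabp5 encodes a cytosolic fatty acid carrier. Apoe in the 8 Untreated mice had a lowest, median and highest normalized count of 7578, 8153 and 8720, and in the 4 Dox mice it was at 8420, 8733, 8880 and 8141. In the 5 LPS mice it was at 6747, 6348, 7605, 6538 and 7513, and in the Dox+LPS mice it ran from 6879 through a median of 7281 to 8192. LPS mouse 3 overlapped the lowest Untreated mouse, and the highest Dox+LPS mouse overlapped the lowest Dox mouse.

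Apoe was lower by -0.23 on the log2 scale in LPS than in Untreated mice (SE 0.05, 95% CI -0.32 to -0.13, edgeR adjusted p = 0.000203), a difference of -14.6%. In Dox+LPS against Dox mice it was lower by -0.22 (SE 0.05, 95% CI -0.32 to -0.11, adjusted p = 0.00096). Both passed the adjusted p and neither reached the fold threshold. By adjusted p alone, with or without the fold threshold, 29.1% and 31.3% of all genes were lower. The values shrank to -0.11 (adjusted p = 0.184) and -0.12 (adjusted p = 0.22) with positive control scaling, and to -0.16 (adjusted p = 0.015) and -0.08 (adjusted p = 0.312) with housekeeping gene scaling. Of 5 astrocyte markers on the panel, Aldh1l1 rose in LPS against Untreated mice (log2 fold change 0.61, edgeR adjusted p = 1.28e-10) and no marker fell past the threshold. In Dox+LPS against Dox mice Aldh1l1 was higher by 0.49 (edgeR adjusted p = 5.9e-08), under the fold threshold. By adjusted p alone 1 of the 5 was higher and 2 were lower in each comparison. The lower ones were Gja1 (-0.19 and -0.24) and S100b (-0.160 and -0.325). Their summed level spanned 14090 to 15320 normalized counts in Untreated and 13560 to 15220 in LPS mice, and 15040 to 15960 in Dox and 14000 to 14650 in Dox+LPS mice. The part of astrocytes in the Apoe values was not tested.

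Fabp5 spanned 2199 to 2758 normalized counts in Untreated mice, with a median of 2499, and was at 2538, 2717, 2711 and 2522 in Dox mice. It was at 2188, 2286, 2158, 2089 and 2209 in LPS mice and spanned 1955 to 2297 in Dox+LPS mice, with a median of 2148. The Dox+LPS mice were all below the Dox mice, a separation seen in this direction in 21.6% of all genes, and the LPS and Untreated mice overlapped. The log2 fold change was -0.19 (SE 0.05, 95% CI -0.30 to -0.08, edgeR adjusted p = 0.00475) without and -0.29 (SE 0.06, 95% CI -0.42 to -0.17, adjusted p = 0.000205) with dox history. With positive control scaling the values were -0.06 (adjusted p = 0.442) and -0.20 (adjusted p = 0.0235), and with housekeeping gene scaling -0.12 (adjusted p = 0.0986) and -0.16 (adjusted p = 0.0676). Neither lipid gene was higher after LPS under any scaling tried.

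Igf1 encodes insulin-like growth factor 1, a trophic factor that DAM share with microglia of developing white matter. Its lowest, median and highest normalized counts were 22.3, 32.2 and 35.1 in Untreated mice. Dox mice were at 41.8, 37.3, 30.9 and 28.8, LPS mice at 25.2, 22.8, 32.4, 24.9 and 24.6, and Dox+LPS mice ran from 11.9 through a median of 24.4 to 30.7. Groups overlapped in both comparisons, and the raw counts stood close to background, which they exceeded in 8 of 8 Untreated, 4 of 4 Dox, 4 of 5 LPS and 3 of 6 Dox+LPS mice.

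The log2 fold change of Igf1 was -0.26 in LPS against Untreated mice (SE 0.16, 95% CI -0.59 to 0.08, edgeR adjusted p = 0.191). It was -0.54 in Dox+LPS against Dox mice (SE 0.18, 95% CI -0.92 to -0.17, adjusted p = 0.0134), which passed both thresholds. This call was lost under 8 of 37 alternatives. The value was -0.41 without Dox+LPS mouse 4 and -0.44 without Dox mouse 1, and between -0.49 and -0.41 under TMM, RLE, housekeeping and positive control scaling, DESeq2 and RUVg. The interaction of LPS and dox for Igf1 was -0.29 (95% CI -0.79 to 0.21, adjusted p = 0.725).

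Of the low probes, Clec7a had 7 to 11 raw counts in the 4 Dox mice and 12 to 20 in the 6 Dox+LPS mice. These ranges did not overlap (edgeR adjusted p = 0.028), while all 10 values were under the background of their mouse, so no fold is given. By normalized counts, 18.6% of all panel genes were separated in this direction. In LPS against Untreated mice the raw counts were 15, 14, 7, 18 and 10 against 6 to 17 and overlapped (adjusted p = 0.427). The Clec7a call was lost without Dox+LPS mouse 4 (adjusted p = 0.0656) and without Dox mouse 1, 2 or 3 (0.0572, 0.0897 and 0.0575).

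Itgax had 13, 16, 16, 17 and 16 raw counts in the LPS mice against 6 to 15 in the Untreated mice, which overlapped (edgeR adjusted p = 0.0523), and showed no such pattern in Dox+LPS against Dox mice, at 8 to 16 against 10 to 13 (adjusted p = 0.884). Cst7 had 8 to 16 counts in LPS and 5 to 15 in Untreated mice (adjusted p = 0.595), and 8 to 17 in Dox+LPS and 4 to 9 in Dox mice (adjusted p = 0.0568). Itgax passed the adjusted p without Untreated mouse 2 (0.0428) or 5 (0.0274). Itgax and Cst7 are both close to the threshold in 1 comparison each, on counts that no mouse had above background.

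None of the 7 genes passed the test in Dox against Untreated mice, in Dox+LPS against LPS mice or for the interaction. In these comparisons 0.0% of all 770 genes were called, while 41, 102 and 69 genes had an unadjusted p under 0.05, none of them a member. Apoe differed by 0.07 (95% CI -0.03 to 0.17) and Fabp5 by 0.07 (95% CI -0.04 to 0.19) on the log2 scale between Dox and Untreated mice. The comparisons share groups with those above, so their values are not independent of them.

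Other genes of the DAM program were taken from a list of 36, of which 14 were on the panel. The list was written with earlier results of these data known, so its counts are a description. Lpl, Cd9 and Gpnmb are among the listed genes not analysed here. In LPS against Untreated mice 8 of the 14 rose and 1 fell, and in Dox+LPS against Dox mice also 8 rose and 1 fell. Of all panel genes, 16.8% and 19.5% were called higher and 5.97% and 7.01% lower. The median log2 fold change of the 14 genes was 0.53 and 0.65, against -0.04 and -0.07 over all 770 genes. Over the 7 members it was 0.17 and -0.05. These are the values of Cst7 in the first and of Itgax in the second comparison, both under background in every mouse. The members' medians therefore do not measure a response. The list includes genes of acute inflammation in general, such as the chemokines Ccl2 and Ccl3. Tyrobp, Csf1, Lilrb4a, Ccl3, Ch25h, Mmp12 and Ccl2 rose in both comparisons, Cd68 in LPS against Untreated and Ctss in Dox+LPS against Dox mice. Each of the last 2 was also higher in the other comparison, under the fold threshold. Cd68 was higher by 0.44 in Dox+LPS against Dox mice (edgeR adjusted p = 0.00413). Ctss was higher by 0.47 in LPS against Untreated mice (adjusted p = 0.000183).

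The receptor and its adaptor moved in opposite directions. Trem2 was at 198 to 276 normalized counts in Untreated mice and 79.7 to 133 in LPS mice, and at 207 to 257 in Dox mice and 73.6 to 130 in Dox+LPS mice, so that the groups did not overlap in either comparison (13.1% and 21.6% of all genes in this direction). Its log2 fold changes were -1.08 (SE 0.14, edgeR adjusted p = 3.3e-07) and -1.21 (SE 0.15, adjusted p = 2.37e-07). Tyrobp rose by 0.57 (SE 0.10, adjusted p = 3.88e-05) and 0.60 (SE 0.12, adjusted p = 0.000108), and the first value was 0.45, under the fold threshold, without 3 Untreated mice whose numbers are of another series.

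Csf1, the ligand of the microglial survival receptor Csf1r, rose by 0.52 (SE 0.07, edgeR adjusted p = 1.57e-06) and 0.69 (SE 0.08, adjusted p = 2.41e-07). The call in the first comparison was lost under 2 of 37 alternatives, and the value was 0.44, under the fold threshold, without LPS mouse 5. Axl, a receptor tyrosine kinase that takes up apoptotic cells and rises in late DAM, was at 475 ± 22.3 (SD, n = 8) normalized counts in Untreated and 488 ± 42.7 (SD, n = 5) in LPS mice. Its log2 fold changes of 0.04 (95% CI -0.08 to 0.16) and -0.03 (95% CI -0.17 to 0.11) did not pass, and the sign of the second changed with the scaling.

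The largest fitted changes of the list were in genes with inflammatory roles. Ccl2, which recruits monocytes, rose from 18.1 ± 5.93 (SD, n = 8) to 206 ± 81.1 (SD, n = 5) normalized counts (log2 fold change 3.51, SE 0.27, edgeR adjusted p = 1.23e-10). It was above background in 3 of 8 Untreated and 5 of 5 LPS mice, so the size of this change rests on counts near background. Lilrb4a, an inhibitory immunoglobulin-like receptor, rose by 1.97 (SE 0.22, adjusted p = 8.07e-08) and 2.80 (SE 0.29, adjusted p = 1.85e-08). It was above background in 7 of 8 Untreated but only 1 of 4 Dox mice, so the size of the second change rests on counts near background. Ch25h, the cholesterol 25-hydroxylase, was under background in every Untreated and Dox mouse and above it in every LPS-injected mouse, at least 2.47-fold and 2.66-fold higher against that background (adjusted p = 6.73e-11 and 4.97e-10). Mmp12, the macrophage elastase, was under background in every Untreated and Dox mouse and at least 4.37-fold and 4.80-fold higher (adjusted p = 2.96e-05 and 0.000292), above background in 4 of 5 LPS and 6 of 6 Dox+LPS mice.

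**Figure D3:**
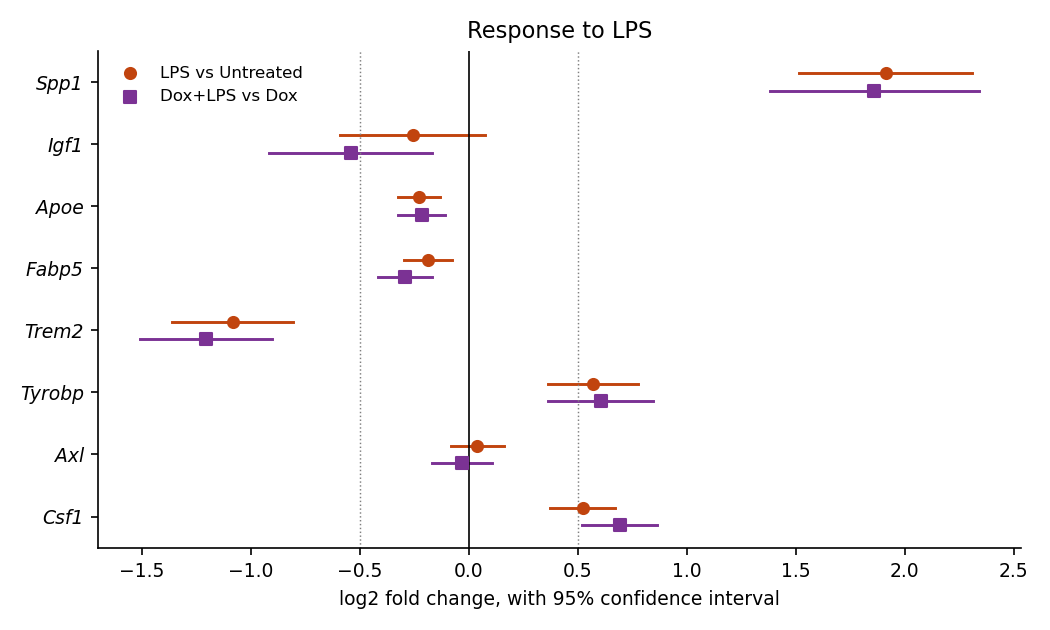
Log2 fold changes (x axis) with 95% confidence intervals of the 4 members above background in most mice and of Trem2, Tyrobp, Axl and Csf1, for LPS against Untreated (circles) and Dox+LPS against Dox mice (squares); dotted lines mark the fold threshold of 0.5 either way. Spp1 lies at 1.91 and 1.86, Trem2 at -1.08 and -1.21, and the lipid genes Apoe and Fabp5 between -0.29 and -0.19.

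Loss of the homeostatic genes, the other side of the DAM program, was measured with 14 genes, from a list also written with earlier results known. The counts are of bulk cortex, and the part of microglia in the values of these genes was not tested. None of the 14 rose past the fold threshold. In LPS against Untreated mice 6 fell (P2ry12, Gpr34, Tgfbr1, Fcrls, Olfml3 and Slc2a5), and the same 6 and Sall1 fell in Dox+LPS against Dox mice. Of all panel genes, 5.97% and 7.01% were called lower. In LPS against Untreated mice Sall1 was lower by -0.27 (edgeR adjusted p = 0.0292), under the fold threshold. The median log2 fold change of the 14 genes was -0.33 and -0.46. P2ry12, the ADP receptor that guides microglial processes, was at 561 ± 30.8 (SD, n = 8) normalized counts in Untreated and 117 ± 29.5 (SD, n = 5) in LPS mice (log2 fold change -2.26, SE 0.12, edgeR adjusted p = 1.03e-12). Gpr34, a lysophosphatidylserine receptor, fell by 2.32 (SE 0.15, adjusted p = 8.81e-12) and 2.77 (SE 0.16, adjusted p = 1.7e-12) on the log2 scale, ranked last of 770 in both comparisons.

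Not all homeostatic genes moved alike. Tgfb1 was higher by 0.35 in LPS against Untreated mice (edgeR adjusted p = 0.0109) and by 0.38 in Dox+LPS against Dox mice (adjusted p = 0.0165). Both values were under the fold threshold. Tmem119, a microglial surface protein, was lower by -0.34 (SE 0.10, edgeR adjusted p = 0.00608) and -0.38 (SE 0.11, adjusted p = 0.00563), under the fold threshold. With positive control scaling these values were -0.22 (adjusted p = 0.146) and -0.28 (adjusted p = 0.102), and the second was -0.24 (adjusted p = 0.11) with housekeeping gene scaling. Cx3cr1, the fractalkine receptor, was at 907 ± 77.8 (SD, n = 8) normalized counts in Untreated and 896 ± 161 (SD, n = 5) in LPS mice. Its log2 fold changes of -0.02 (95% CI -0.30 to 0.26) and -0.18 (95% CI -0.50 to 0.14) did not pass, and the sign of the first changed with the scaling.

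**Figure D4:**
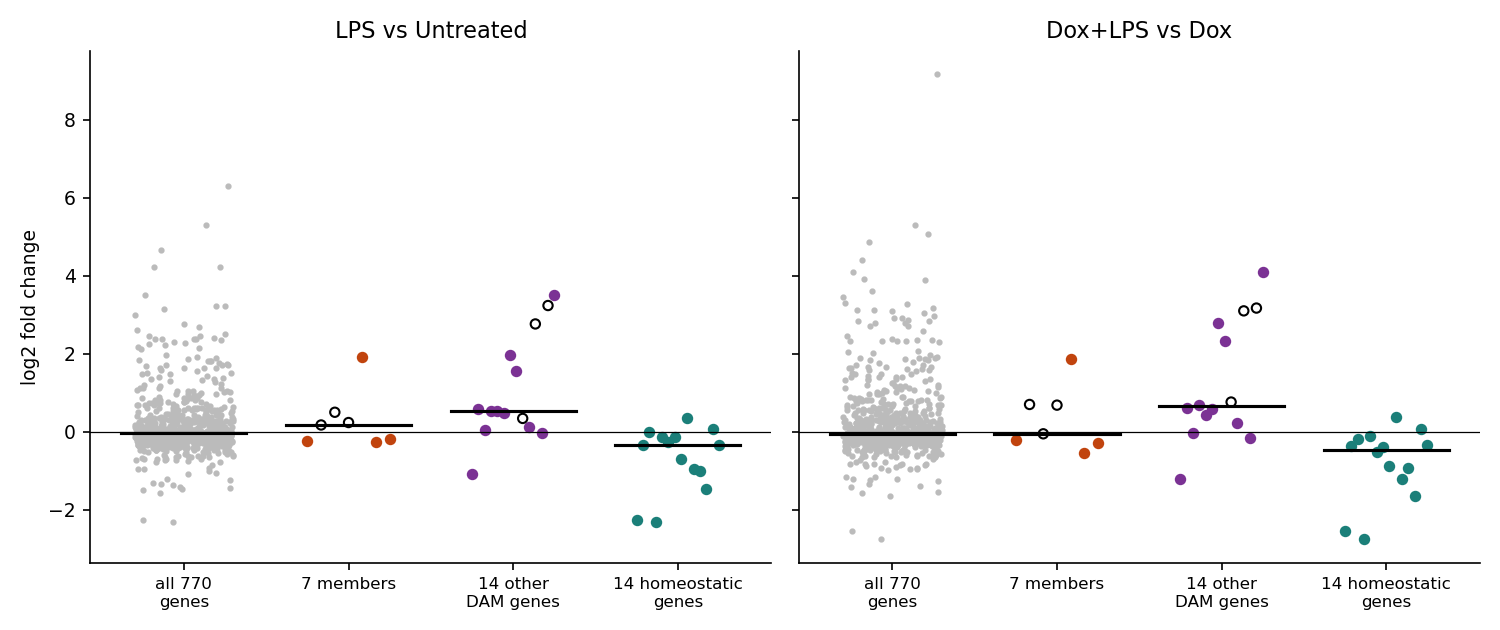
Log2 fold changes (y axes) of all 770 panel genes (grey), the 7 members, 14 other DAM genes and 14 homeostatic genes, for LPS against Untreated (left) and Dox+LPS against Dox mice (right), with the median of each set as a line; open circles are genes under background in every mouse of at least 1 of the groups compared, or in all but 1 mouse of the study. Medians are 0.17 and -0.05 for the members, 0.53 and 0.65 for the other DAM genes and -0.33 and -0.46 for the homeostatic genes. The members' medians are the values of Cst7 (left) and Itgax (right), both under background in every mouse.

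Markers of the cells that could supply these transcripts moved with LPS as well. Of 5 genes of microglia and macrophages in general, 3 rose in each comparison (Itgam and Ptprc in both, Cd68 in the first and Irf8 in the second). Their summed level spanned 1225 to 1591 normalized counts in Untreated, 1256 to 1348 in Dox, 1296 to 1758 in LPS and 974 to 1612 in Dox+LPS mice. By adjusted p alone 4 of the 5 were higher in each comparison, where 22.9% and 24.7% of all genes were. With the fold threshold these shares of all genes were 16.8% and 19.5%. Of 3 monocyte markers, Cd14 and Ms4a4a rose and Ccr2 did not, and the summed level spanned 35.9 to 97.1 in Untreated and 147.5 to 304 in LPS mice, and 50.4 to 76.8 in Dox and 230 to 329 in Dox+LPS mice. Among neutrophil markers, Fpr1 rose in both comparisons, while the defining marker Ly6g was under background in every mouse. The 1 perivascular macrophage marker measured, Cd163, rose in both comparisons, at 16.0 to 25.5 normalized counts in Untreated and 24.1 to 42.2 in LPS mice, and 7.46 to 24.5 in Dox and 13.5 to 40.5 in Dox+LPS mice. The groups overlapped in both comparisons. Cd163 was above background in 6 of 8 Untreated and 1 of 4 Dox mice, so the size of its rise rests on counts near background. All 5 T cell and all 3 B cell markers were under background in every mouse, and none of 6 NK cell markers passed. The part of infiltrating or perivascular cells in the Spp1 values was not tested.

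Oligodendrocyte markers fell, with 5 of 8 called lower in each comparison, where 5.97% and 7.01% of all genes were. Their summed level spanned 28820 to 36560 normalized counts in Untreated and 20980 to 24150 in LPS mice, and 31910 to 34080 in Dox and 21700 to 26270 in Dox+LPS mice. The part of these cells in the Igf1, Fabp5 and Apoe values was not tested.

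Differences between mice of the same group describe which genes vary together with a member. After subtraction of the group means, over 23 mice and as a description, Spp1 varied most closely with Cp (Pearson r 0.84), which encodes the ferroxidase ceruloplasmin, Mpeg1 (0.79), a macrophage perforin, and Psmb8 (0.79), an interferon-induced proteasome subunit. Without LPS mouse 3 these values were 0.75, 0.71 and 0.62. Apoe was closest to Plekhm1 (0.77), Gal3st1 (0.71) and Tfg (0.67), and Fabp5 to Tubb4a (0.72), Eif1 (0.64) and Ifnar1 (0.64). Igf1 was closest to Tmcc3 (0.61), the myelin gene Mog (0.58) and Jam2 (0.58), with counts close to background.

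The members did not vary as 1 block. Of the 6 pairs among Apoe, Spp1, Igf1 and Fabp5, the values were -0.52 for Apoe and Spp1, 0.38 for Apoe and Fabp5, 0.35 for Apoe and Igf1, and -0.15 to 0.08 for the others. All these correlations share the same libraries and scaling factors.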

How the data were processed

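Cortical RNA was hybridized to the nCounter panel, and the authors deposited the instrument's whole-number probe counts. The deposited counts are treated as estimated counts, since some header rows above them carry decimals, and rounding left them unchanged. A second deposited table of normalized signal (upper quartile, RUVg; edgeR 3.38.4 per the labels) and 1 column that no sample's labels match were not used. Counts of 770 genes in 23 mice were scaled by the upper quartile and tested in edgeR 4.0.16 (R 4.3.3) by quasi-likelihood, with a mean per group and no filter on low counts; P-values were adjusted over all genes by Benjamini-Hochberg. To give normalized counts, each count was divided by that mouse's scaling factor (mean 1 over mice). P-values set a difference between groups against the spread between mice, estimated over all 4 groups. In comparisons of LPS with saline that difference includes any effect of the cartridge. Probes differ in efficiency, so levels were not compared between genes.

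The 7 members and the lists were chosen with earlier results of these data known. Named genes were the members, up to 4 genes of each list with the smallest p in LPS against Untreated mice where described, 8 fixed DAM and homeostatic genes, and 3 genes per member of most similar pattern; single markers of other cell types, Lcn2, Cd9 and Gpnmb were named after values were seen. Alternatives were TMM, RLE, positive control and housekeeping gene scaling, limma-voom (limma 3.58.1), DESeq2 1.42.0, edgeR's likelihood ratio test, 1 RUVg factor computed from its published description, a low count filter (above background in at least 4 mice), background subtraction, sex as a covariate, omission of 3 Untreated mice of another number series, omission of each mouse in turn, and adjusted p alone. The fits were tested on simulated counts. Panel depth per mouse is given in the report.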

Additional observations from a re-analysis of the deposited data

Results flagged for a closer look

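Among 66 gene and group combinations tested, 5 had 1 mouse whose gap to the others, relative to the group's range, exceeded Dixon's limit, where chance gives about 1 in 20, or 3.3. Igf1 was at 32.4 normalized counts in LPS mouse 3 against 22.8 to 25.2 in the other LPS mice. Cx3cr1 was at 732 in Untreated mouse 8 against 885 to 977, and at 401 in Dox+LPS mouse 1 against 825 to 955. The same Dox+LPS mouse was at 378 for Tyrobp against 518 to 555. Slc2a5 was at 116 in Dox mouse 3 against 79.98 to 83.15.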

How the results depend on the processing

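Over 37 alternatives, 23 of them omitting 1 mouse, Spp1 kept its direction and call in both LPS comparisons (log2 fold change 1.64 to 2.16 and 1.71 to 2.02). Apoe and Fabp5 were lower throughout (-0.26 to -0.11 and -0.21 to -0.06 in LPS against Untreated mice, -0.25 to -0.08 and -0.31 to -0.16 in Dox+LPS against Dox mice).

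The number of members called changed. In LPS against Untreated mice Itgax joined Spp1, giving 2 of 7 higher, with TMM, RLE, housekeeping and positive control scaling, limma-voom, RUVg and sex as a covariate, and the count ranged from 1 to 2 when 1 mouse was omitted; by adjusted p alone 2 members were lower, Apoe and Fabp5. In Dox+LPS against Dox mice 1 member was higher with DESeq2, RUVg and the low count filter, which removed Clec7a, and 1 to 3 when 1 mouse was omitted, where Cst7 passed (adjusted p = 0.0344 to 0.0493) without Dox mouse 1, Dox+LPS mouse 1 or 3, or Untreated mouse 4 or 6. Cst7 also passed (adjusted p = 0.0287 to 0.0408) with TMM, RLE, housekeeping and positive control scaling, under background in every mouse. Igf1 was no longer called with TMM (-0.48), RLE (-0.49), housekeeping (-0.41) or positive control scaling (-0.44), DESeq2 (-0.49) or RUVg (-0.49), leaving 0 lower, with 0 to 1 when 1 mouse was omitted and 3 by adjusted p alone. The cause was not tested.

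By adjusted p alone, 10 and 10 homeostatic genes were lower and 1 and 1 higher, 2 other DAM genes were lower in Dox+LPS against Dox mice, and 224 and 241 of all genes were lower. In Dox+LPS against Dox mice housekeeping scaling gave 1 homeostatic gene higher and 30 genes lower, and positive control scaling 34 lower; under these scalings the panel's median log2 fold change was 0.07 and 0.03, in place of -0.07. In Dox+LPS against LPS mice DESeq2 and RUVg called 2 genes higher, and RUVg called 3 higher for the interaction, none of them a member.

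Signs of values near 0 turned. Cx3cr1 in LPS against Untreated mice was 0.02 (TMM), 0.01 (RLE and DESeq2), 0.05 (housekeeping), 0.10 (positive control), 0.03 and 0.04 without LPS mouse 3 or 5 (range over omitted mice -0.13 to 0.04), and 0.05 without LPS mouse 3 and Untreated mouse 3 together, an omission chosen after the data were seen. Axl was -0.01 with RUVg there, and in Dox+LPS against Dox mice 0.03 (TMM, RLE and DESeq2), 0.11 (housekeeping), 0.07 (positive control) and 0.01 without Dox+LPS mouse 2 or Dox mouse 3. Igf1 in Dox+LPS against LPS mice was 0.01 without Dox+LPS mouse 4 (range -0.22 to 0.01). The interaction of Spp1 was 0.01 (housekeeping), 0.05 (limma-voom), 0.15 (RUVg), 0.08 without the 3 Untreated mice of another series and above 0 without single mice (Dox 1 or 4, LPS 2 or 4; range -0.23 to 0.11), and that of Apoe -0.01 (positive control, RUVg and low count filter) and under 0 without Dox+LPS mouse 6, Dox mouse 4 or LPS mouse 2 or 4 (range -0.02 to 0.05). No paired analysis was possible because the labels give mouse numbers and no replicate numbers shared by the groups.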
